A study of Homo sapiens and Mus musculus with 9 samples.

Results

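Capped sense peaks around the start codon are positions on human messenger RNAs, from 50 nt before to 15 nt after the first base of the annotated start codon, at which the deposited list of capped small RNA holds at least 4 reads on the coding strand. They were chosen by their distance from the start codon alone, in any annotated region. The list held 703 such peaks of 4521 capped sense peaks (15.5%), on 553 of 3072 transcripts. The exact Poisson 95% interval of their number was 652 to 757, and it covers counting error only, as do all intervals given here. The small RNA came from wild-type HEK293 cells, a human embryonic kidney line, without further treatment named in the labels. The capped library (Control_Cap) was set beside a library of total small RNA from the same line (Control_Total). Ribosome footprints came from wild-type HEK293 cells in 4 libraries: starvation with transfection of a trans-RNA directed against ATF4 (Ribo_starvation_trans1 and Ribo_starvation_trans2, which carry the same treatment label), starvation alone (Ribo_starvation) and control (Ribo_control). Each group was 1 library, so no difference has a replicate check and no test between libraries was made.

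A messenger RNA made by RNA polymerase II carries a 7-methylguanosine cap on its first nucleotide, and that nucleotide is most often a purine that follows a pyrimidine in the DNA. The small ribosomal subunit binds near the cap and scans along the leader to the start codon, where the ribosome assembles. Messages of ribosomal proteins and many translation factors begin with a C and a run of pyrimidines, called the 5′ terminal oligopyrimidine motif. Per the labels' protocol, the small RNA was treated with phosphatase, and a part was then decapped, so that RNAs which had carried a cap gained an end that a linker can join. Another part was phosphorylated instead. The labels do not state which read end a listed position marks.

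The sequences below show capped peaks that lay exactly on the RefSeq transcription start of a gene with a short leader (GRCh38.p14). Each runs 30 bases to the G of the ATG, 5′ to 3′, and the capitals mark the stretch from the peak to that ATG. They are shown because the whole annotated leader lies in capitals.
SPC24 (chr19:11155774-11155803, minus strand): ttgcgcgggttggagcctggcGTAGTCATG
H3C10 (chr6:27810047-27810076, plus strand): tcctGAAGTGAATCTAGCTCTGAAGGCATG
CIAO3 (chr16:740983-741012, minus strand): cctgcgcgcggcggcAGTGCGGCCGTCATG
DCAF15 (chr19:13952486-13952515, plus strand): ctccggaagtggagggagggggtGAAAATG
BCKDHB (chr6:80106667-80106696, plus strand): gcctGAGAATCCCGGTGGTGAGCGGGGATG
ATG14 (chr14:55411820-55411849, minus strand): cgtgactggctctcctctcAGGCCATCATG
RICTOR (chr5:39074375-39074404, minus strand): ccggtGTTGTGACTGAAACCCGTCAATATG

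In all 7 lines the capitals open with A or G, and the base before them is C or T. The genes encode a kinetochore subunit (SPC24), a replication-dependent histone H3 (H3C10), a cytosolic iron-sulfur assembly factor (CIAO3), a substrate receptor of a ubiquitin ligase (DCAF15), a subunit of branched-chain keto acid dehydrogenase (BCKDHB), an autophagy factor (ATG14) and a component of mTOR complex 2 (RICTOR). Their capped counts were 33 for SPC24 at -6 nt, 21 for H3C10 at -23 nt, 15 for CIAO3 at -12 nt, 15 for DCAF15 at -4 nt, 14 for BCKDHB at -23 nt, 13 for ATG14 at -8 nt and 13 for RICTOR at -22 nt. H3C10 has near-identical gene copies, and the sources used here do not state how reads were shared among copies.

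Most peaks were small. The counts ran from 4 to 327 reads with a median of 6, and 221 peaks sat at the lowest listed count of 4. Peaks with at least 10 reads numbered 154, and 8 had at least 100. Together the 703 peaks held 7312 reads, 1.15% of all reads in the capped sense list, and the 10 highest held 21.3% of them. The peak was the highest listed one of its transcript in 545 cases (77.5%), and 481 of the 553 transcripts had no listed capped peak outside the window. On the antisense strand, 0 of the 703 had a listed peak within 10 nt in either library.

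The highest peak lay at -35 nt in PLVAP, a protein of endothelial diaphragms, with 327 reads. It was followed by CHMP2A at 10 nt, a subunit of the membrane-cutting ESCRT-III complex, with 312 reads, and by the rhomboid family gene RHBDL3 at -45 nt with 182 reads. Next came the histone gene H2AC11 at -29 nt with 140 reads, DENND10 at -26 nt with 129, ARL16 at -10 nt with 107, ART5 at -1 nt with 104 and ECI1, a mitochondrial enzyme of fatty acid oxidation, at -14 nt with 103. The other 12 of the 20 highest had 44 to 81 reads. They included MCEE and TRAP1, which act in mitochondria, the Mediator subunits MED31 and MED29, the early response gene IER3, the translation initiation helicase EIF4A2, the ribosome assembly factor NOP56 and the mitochondrial ribosomal protein MRPL34.

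Along the window, capped peaks were most frequent just before the start codon and fell off past it. Positions -4 and -3 held 34 peaks each, against a median of 11 per position before the codon and 4.5 from position 0 on. The next fullest positions were -23 with 21 peaks, -22 and -12 with 20 each, and -21 and 0, the A of the codon, with 18 each. At -4 nt the highest counts belonged to LPGAT1 with 49 reads and to the proteasome subunit PSMB5 with 37, and at -3 nt to the prefoldin subunit PFDN4 with 39 and to ARL16 with 30. On the codon itself the 5 highest were ARL16 with 30, C5orf15 with 24, JPT2 with 21 and ZBED5 with 15 reads, all at 0 nt, and TATDN3 at 2 nt with 22. No capped peak lay at 1 nt, the T of the codon, nor at 3 or 13 nt.

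The total library had far fewer peaks in the same window. Before the codon there were 12.5 capped and 1.5 total peaks per nt, a ratio of 8.32. From 0 to 15 nt there were 4.94 capped and 2.38 total peaks per nt, a ratio of 2.08. At -4 and -3 the ratio was 17, from 68 capped and 4 total peaks. In all, the window held 15.5% of the capped and 3.31% of the total sense peaks (113 of 3416), and 2.43% of the capped antisense peaks (44 of 1810). The read totals of the libraries are not in the lists, so a ratio of peak numbers also carries any difference in depth.

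**Figure D1:**
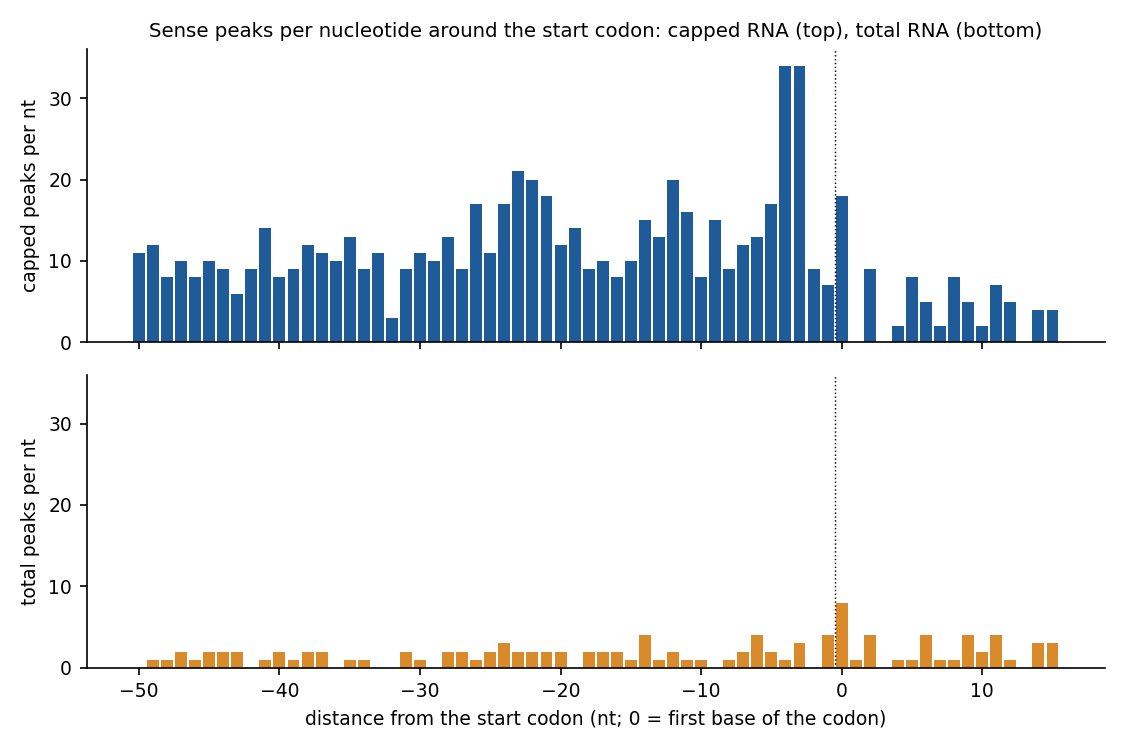
Number of listed sense peaks at each position (x axis, nt from the start codon; the dotted line marks its first base), in the capped library above and the total library below, 1 library each. The capped bars reach 34 at -4 and -3 and fall to a median of 4.5 from 0 on.

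Over a wider range, the capped list rose towards the codon and dropped past it. The 10 nt just before the codon held 158 capped and 18 total peaks, and the next 10 nt held 57 capped and 25 total peaks. Positions -4 and -3 alone held 68 of the 158. How many transcripts have a leader that reaches each position was not counted, so these are not rates per transcript. From 90 to 99 nt there were 5 capped and 11 total peaks. The ends of the window cut through a continuous distribution. Just inside the upstream end lay ORMDL2, ANAPC5, WDR70, ARHGDIA and ORC5 at -50 nt with 6, 4, 18, 4 and 4 reads, and just outside lay NDUFB10, PCTP, SCAI, GABRE and SLC25A3 at -51 nt with 8, 5, 7, 32 and 11 reads. At the other end GORASP2, MAP1S and NSL1 had 4 reads each and DYNC2H1 had 9 at 15 nt, and WARS2 had 5 at 14 nt. RNPEP with 5 and TRNAU1AP with 26 reads at 16 nt, and DYNC1LI2, FBXO3 and ALKBH4 with 4 each at 18 nt, lay outside.

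**Figure D2:**
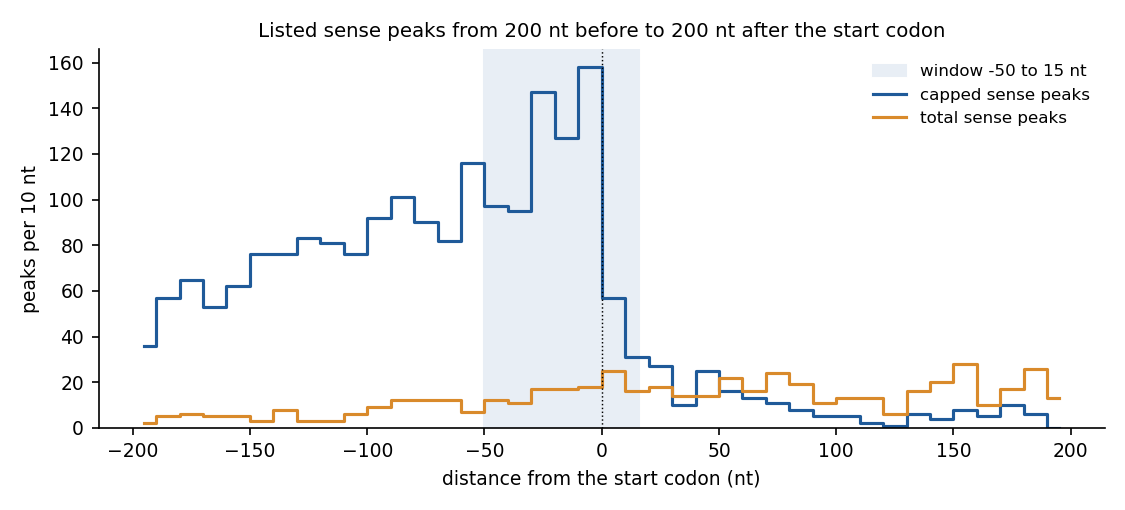
Listed sense peaks per 10 nt (y axis) from 200 nt before to 200 nt after the start codon (x axis) in the capped and the total library, with the window shaded. The capped line reaches 158 in the 10 nt before the codon and 57 in the next 10 nt, where the total line stands at 18 and 25.

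Several peaks often shared a transcript. Of the 552 genes, 110 had at least 2 peaks in the window, and 150 neighbouring pairs on a transcript lay a median of 3 nt apart, 98 of them within 5 nt. Neighbouring peaks are therefore not independent positions. ARL16, a small GTPase, had the most: 107 reads at -10, 26 at -9, 30 at -3, 23 at -2, 8 at -1 and 30 at 0 nt. SCAND1 had 5 peaks, with 9 reads at -26, 4 at -23, 6 at -6, 5 at -4 and 8 at 0 nt. TRAP1, a mitochondrial chaperone, had 73 reads at -9, 39 at -8, 7 at -13 and 5 at -16 nt. PFDN4 had 39 reads at -3, 16 at -9, 11 at -14 and 6 at -4 nt. MFSD8, a lysosomal membrane protein, had 12 reads at -38, 17 at -37, 4 at -36 and 6 at -25 nt. ARL16 and SCAND1 thus had listed peaks on both sides of the codon boundary, while those of TRAP1, PFDN4 and MFSD8 all lay before it.

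A total sense peak within 10 nt on the same transcript was listed for 36 of the 703 peaks (5.12%, exact binomial 95% interval 3.61 to 7.02). Over all capped sense peaks this share was 26.2%, and over those outside the window it was 30.1% (28.6 to 31.6). Split by region, the share outside the window was 10.8% in leaders (234 of 2167), 51.4% in coding regions and 61.5% in 3′ untranslated regions. The low share was not particular to the window: among the 873 capped peaks in the 100 nt just upstream it was 4.35% (3.10 to 5.93). In the 100 nt just downstream it was 31.5% (23.7 to 40.3, 41 of 130 peaks). Within the window the share was 4.49% before the codon (28 of 624) and 10.1% from the codon on (8 of 79), with intervals of 3.002 to 6.42 and 4.47 to 19.0 that overlap. It also moved with the count of the peak. At 4 reads the share was 1.36% in the window and 11.03% elsewhere, and at 30 reads or more it was 31.4% (11 of 35) in the window and 77.4% elsewhere.

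**Figure D3:**
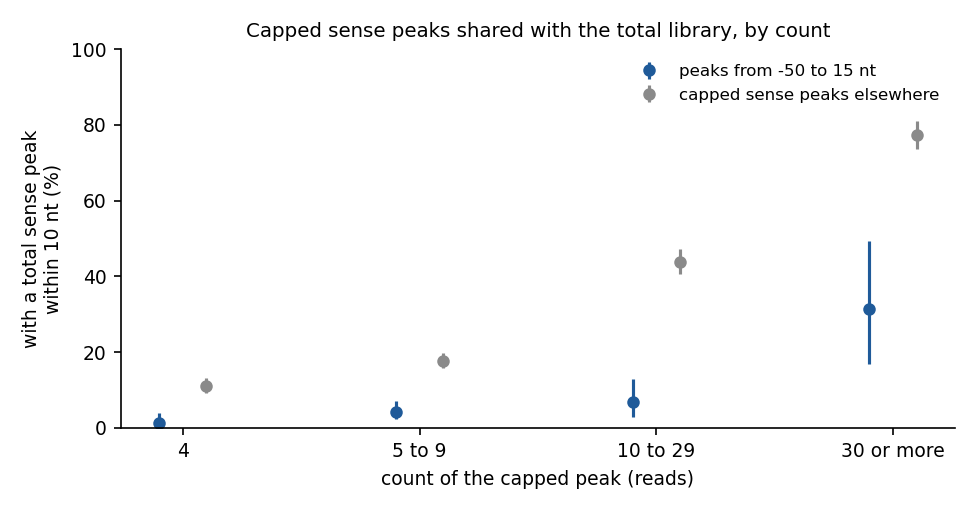
Percent of capped sense peaks with a total sense peak within 10 nt (y axis) by count of the capped peak (x axis), for the window from -50 to 15 nt and for capped sense peaks elsewhere, with exact binomial 95% intervals. The share in the window stands below that elsewhere in each count class, from 1.36% against 11.03% at 4 reads to 31.4% against 77.4% at 30 or more. Peaks elsewhere pool all regions and were not split by region within a count class.

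Of the 36 shared peaks, 29 lay at the same position in both libraries, and at 21 of these 29 the capped count was the higher. PLVAP at -35 nt had 327 capped and 13 total reads. CHMP2A at 10 nt had 312 capped and 131 total reads. RHBDL3 at -45 nt had 182 capped and 123 total reads, and ART5 at -1 nt had 104 capped and 28 total reads. Raw counts of the capped library were thus higher at all 4 of these positions, by unequal factors. These 4 were named for having the highest capped counts among the shared peaks, a choice that favours this direction. MCEE had 81 capped and 14 total reads at 6 nt, MED31 71 and 42 at -1 nt, CZIB 49 and 18 at 7 nt, LPGAT1 49 and 16 at -4 nt, PPP1R12A 44 and 24 at 4 nt, and RAB44 38 and 17 at -12 nt. IRS1, the insulin receptor substrate, was among those that went the other way, with 27 capped and 34 total reads at -23 nt. Seen from the total list, 32 of its 113 peaks in the window (28.3%) had a capped peak within 10 nt, against 37.5% of its peaks outside.

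Where peaks lay relative to annotated transcription starts could be read for genes with short leaders. RefSeq start windows matched 463 of the 552 gene symbols. A peak was placed if its gene had 1 annotated start and the 50 bases from that start held exactly 1 ATG, taken as the start codon. This held for 266 peaks, of which 4 lay past the end of those 50 bases and were left out, which gave 262 placed peaks. That ATG can be an upstream one in some genes, and peaks of genes with longer leaders could not be placed, so the 262 stand for short leaders only. Of them, 77 (29.4%, interval 23.9 to 35.3) lay exactly on the RefSeq start, 130 (49.6%) within 5 nt of it, 91 (34.7%) more than 10 nt past it and 10 before it. Among the 21 placed total peaks of the same window, 3 (14.3%, interval 3.05 to 36.3) lay on the start, which was too few to tell apart from the capped share.

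**Figure D4:**
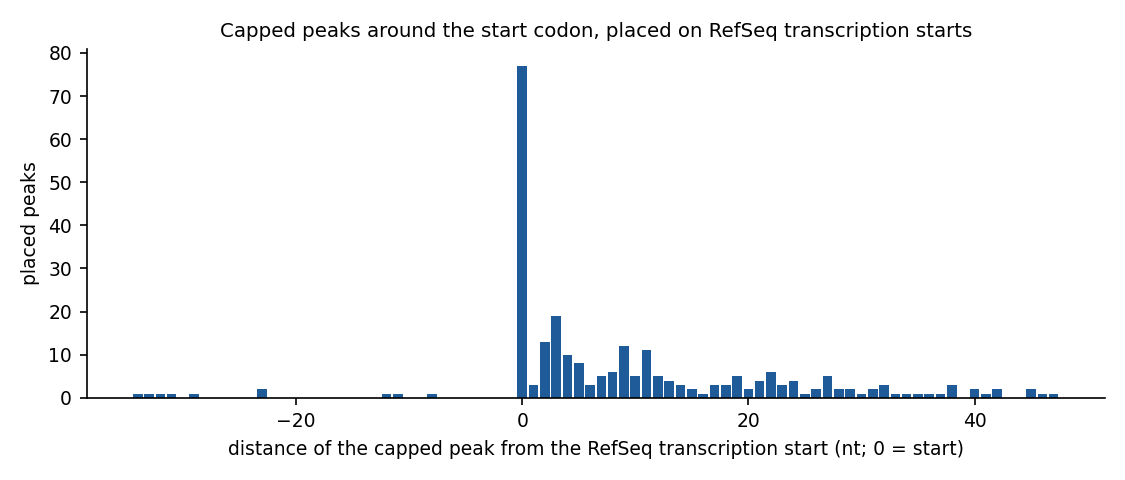
Number of placed capped peaks (y axis) by distance from the RefSeq transcription start of their gene (x axis, nt), for 262 peaks in 1 library. The bar at 0 holds 77 peaks, and no other position holds more than 19.

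The share on the annotated start differed along the window. It was 47.6% at -50 to -31 nt (20 of 42), 42.1% at -30 to -13 nt (45 of 107), 19.6% at -12 to -5 nt (11 of 56) and 1.75% at -4 to 15 nt (1 of 57). Placement needs the ATG within 50 bases of the start, so a peak near the codon could lie on the start only where the leader was a few bases long. Peaks past the first base of the codon could not lie on the start at all. Peaks at -50 to -31 nt had little room to lie far past it. The differences between these classes are thus partly set by the placement rule. Over the 69 genes whose highest placed peak lay on the start, the leader had a median of 25 nt. H2AC11 at -29 nt, MED29 at -45 nt, EIF4A2 at -34 nt and NOP56 at -29 nt lay on the start. RPAIN at -26 nt lay 3 nt past it, DENND10 at -26 nt lay 4 nt past it and ECI1 at -14 nt and TRAP1 at -9 nt each lay 7 nt past it.

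Peaks past the annotated start are shown by these examples, in the same format, with capitals from the peak to the ATG.
ECI1 (chr16:2251564-2251593, minus strand): acctttatcccgcGCGTTGCGGTCAAGATG
TRAP1 at -9 nt (chr16:3717506-3717535, minus strand): ctgcgcgcggcgctctggGAGTACGACATG
NUP205 (chr7:135557918-135557947, plus strand): gaagggctctGTTAGTGCGCCTCTAAGATG

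ECI1 had 103 capped reads, TRAP1 73, and NUP205, a nuclear pore scaffold protein, 26 at -17 nt. The peaks of ECI1 and NUP205 again begin on a purine after a pyrimidine, and that of TRAP1 on a G after a G.

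The base at the peak was a purine in most placed cases. It was G in 132 (50.4%), A in 101 (38.5%), C in 26 (9.92%) and T in 3 (1.15%) of the 262. Over all bases from the start through the ATG in the same windows, with the letters of the ATG included, G made up 36.2%, C 25.3%, A 19.9% and T 18.7%. A pyrimidine followed by a purine stood at 200 of the 262 peaks (76.3%, interval 70.7 to 81.3), at 26.7% of those same bases and at 61.5% of the 35116 RefSeq starts in the table. The last letter of each ATG is such a purine by itself. Among the 185 placed peaks that were not on the annotated start the share was 72.4% (134 peaks, interval 65.4 to 78.7). Among the 21 placed total peaks it was 42.9% (9 peaks, interval 21.8 to 65.98).

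This pair of bases also varied along the codon region of genes with 1 annotated start and 1 ATG. It was present at -3 nt in 29.1% of such leaders, at -4 nt in 22.5%, at -2 nt in 17.7% and at -1 nt in 16.5%. Farther upstream it was present at -5 nt in 17.4%, at -6 nt in 24.1%, at -9 nt in 22.4% and at -12 nt in 22.5%. The window held 17, 13, 15 and 20 capped peaks at these positions. From -12 to -5 nt the pair was least frequent at -5 nt and most frequent at -6 nt. At 0 nt it stood in 45.4%. The codon's own letters give it at 2 nt in every gene and at 1 nt in none. The window held 34 capped peaks at -4, 34 at -3, 9 at -2, 7 at -1, 18 at 0, 0 at 1 and 9 at 2 nt. Of the placed ones, 11 of 16 at -4 nt, 11 of 12 at -3 nt and 5 of 6 at 0 nt lay on a pyrimidine followed by a purine. How far this pair of bases accounts for the number of peaks at each position was not tested.

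A C followed by 4 pyrimidines, the start of a 5′ terminal oligopyrimidine motif, stood at 13 of the 262 placed peaks (4.96%) and at 4.07% of all RefSeq starts. The letters searched were C at the peak and C or T at each of the next 4 bases, on the coding strand. Those below lay on the annotated start, and the capitals mark the peak base and the 4 bases after it, within 10 bases before and 15 after.
EIF4A2 (chr3:186783567-186783596, plus strand): gcgccgctgtCTTTTcagtcgggcgctgag
RPL22L1 (chr3:170870176-170870205, minus strand): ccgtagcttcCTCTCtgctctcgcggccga
RPS6 (chr9:19380217-19380246, minus strand): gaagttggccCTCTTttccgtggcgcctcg
RPL37A (chr2:216498834-216498863, plus strand): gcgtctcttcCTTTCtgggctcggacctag

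EIF4A2 had 48 capped reads at -34 nt, RPL22L1, a paralogue of a ribosomal protein, 14 at -28 nt, RPS6 11 at -41 nt and RPL37A 7 at -31 nt. Of the 13, RPS3, RPL10A, RPS28 and RPL27A also encode ribosomal proteins, with 12, 5, 5 and 4 reads. RPL27A lay on the RefSeq start, RPS3 lay 1 nt past it, RPL10A 3 nt past it and RPS28 4 nt past it. The other 5 encode neither ribosomal proteins nor translation factors. LRPPRC with 6 reads at -42 nt and ABRAXAS1 with 4 at -28 nt lay on the start, ANKLE2 with 5 at -31 nt lay 3 nt past it, APLP2 with 4 at -18 nt lay 27 nt past it, and AKAP8 with 8 at -35 nt lay before it.

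Gene groups differed in how often a gene with any capped sense peak had a peak in the window. Over all such genes it was 552 of 3056 (18.1%). It was 18 of 31 for cytosolic ribosomal proteins (58.1%, interval 39.1 to 75.5), with 22 peaks of which 1 lay on or past the codon. Among the highest were RPL7L1 with 16 reads at -38 nt, RPL22L1 with 14 at -28 nt and RPL29 with 12 at -47 nt. RPL7L1 and RPL22L1 are paralogues rather than core subunits. It was 29 of 52 for nuclear-encoded mitochondrial proteins (55.8%, interval 41.3 to 69.5), with 39 peaks led by MRPL34 at -40 nt with 44 reads, the complex I subunit NDUFS8 at -21 nt with 34, MRPL38 at -7 nt with 17 and the ATP synthase subunit ATP5F1B at -21 nt with 16.

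Histone genes had a peak in 10 of 17 cases (58.8%), led by H2AC11 with 140 reads at -29 nt, H3C13 with 35 at -11 nt, H3C10 with 21 at -23 nt and H3C1 with 15 at -39 nt. Their near-identical copies leave the gene of each read uncertain. Translation factors had one in 6 of 17 cases (35.3%, interval 14.2 to 61.7), among them EIF4A2, EIF4A1 with 16 reads at -14 nt and EIF2B5 with 12 at -11 nt. The list was drawn by symbol, so it also took in the kinase EIF2AK1 and the methyltransferase EEF2KMT. Ubiquitin and proteasome genes had one in 10 of 34 (29.4%), led by PSMB5 with 37 reads at -4 nt and PSMB6 with 10 at -7 nt. This list was also drawn by symbol and took in PSMC3IP, which is not a proteasome subunit, with 4 reads at 2 nt. RNA-binding and splicing factors had one in 8 of 43 (18.6%), near the share of all genes, with RBM7 highest at 11 reads.

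At the low end were zinc finger genes with 3 of 83 (3.61%, interval 0.752 to 10.2), namely ZNF346, ZNF830 and ZNF292 with 5 or 6 reads each, and solute carriers with 2 of 47 (4.26%, interval 0.520 to 14.5), namely SLC25A4 and SLC35A2. No gene with an SNHG symbol, nor GAS5, was in the list, and these symbols are only some of the genes that carry small nucleolar RNAs in their introns. Each listed peak carries a distance from a start codon, so a noncoding gene could not enter the list. Their absence therefore gives no measure of capped RNA at these genes. Only peaks within a fixed distance of the codon count here, so a group with long leaders has less room to contribute. Leader length outside the placed genes was not measured.

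Ribosome footprints were listed around the start codon for 366 of the 553 transcripts in Ribo_control (66.2%), and for 66.1% of the 2519 other transcripts with a capped sense peak. The density, which the authors scaled to the mean of each transcript, had a median over the window from -30 to 300 nt of 0.924 for the transcripts with a peak near the codon, 0.887 for the others and 0.888 for all 13517 listed transcripts. At -12 nt, 12 nt before the codon, 51.4% of the transcripts with a peak near the codon had no footprint, against 66.6% of the others and 72.1% of all. A share at 0 moves with reads per transcript. Among transcripts with at least 50 window reads at 8 or more positions, median window reads were 271.5, 322, 357 and 267 where the most upstream capped peak lay at -50 to -31, -30 to -13, -12 to -5 and -4 to 15 nt, against 173 over all transcripts. With that minimum, footprints at -13 to -11 nt were present in 69.4%, 62.9%, 57.4% and 27 of 54 transcripts of these classes, against 53.1% of all. The part of read depth in the difference at -12 nt was not tested. From -10 to -1 nt the median density was 0.335 for the transcripts with a peak near the codon, 0.0444 for the others and 0 for all. With the same minimum of reads, the median percent of window reads there was 1.40, 1.13, 2.52 and 1.88 in the 4 classes. It was 1.72 for other transcripts with a capped peak before -50 nt and 1.12 for those with capped peaks past 15 nt only. Over all transcripts it was 1.37. Over the first 100 coding nt the median densities of the transcripts with a peak near the codon, the others and all were 0.638, 0.676 and 0.578. The sources used here do not state the offset of these positions. The submitters' processing notes list the mouse build GRCm39 for these libraries of a human line, while the density and fold tables carry human transcript identifiers, so which genome the reads were placed on could not be settled.

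Within a transcript every density was a whole multiple of the same smallest unit, so reads in the window could be recovered for 99.9% of transcripts or more in each library. The recovered window reads came to 2802158 in Ribo_starvation_trans1, 3314866 in Ribo_starvation_trans2, 4183567 in Ribo_starvation and 4753819 in Ribo_control. H2AC11 had 1635, 4932, 4037 and 6199 window reads in these libraries, in that order, CHMP2A 276, 492, 557 and 812, and CZIB 424, 659, 944 and 650. Reads at -13 to -11 nt came to 47, 95, 153 and 283 for H2AC11, 32, 65, 73 and 68 for CHMP2A, and 34, 124, 92 and 63 for CZIB. All 3 had footprints there in every library, CHMP2A and CZIB with their capped peak past the codon. ARL16, with 6 capped peaks from -10 to 0 nt, had 113, 451, 388 and 501 window reads and none at -13 to -11 nt. LPGAT1, with its peak at -4 nt, had 317, 216, 379 and 317 window reads, none at -13 to -11 nt, and 4, 12, 53 and 7 at -30 to -14 nt.

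The share of transcripts with a footprint at -30 to -14 nt was set against the place of their most upstream listed capped peak. It was counted in transcripts with at least 50 window reads at 8 or more positions, a minimum chosen after the data were seen, as was the grouping. In Ribo_control the share was 72.6% where the most upstream peak lay at -50 to -31 nt (45 of 62), 56.7% at -30 to -13 nt (55 of 97), 34.04% at -12 to -5 nt (16 of 47) and 40.7% at -4 to 15 nt (22 of 54). With classes pooled it was 37.6% for peaks from -12 nt on (38 of 101, interval 28.2 to 47.8) and 62.9% for peaks from -50 to -13 nt (100 of 159, interval 54.9 to 70.4). It was 56.5% for transcripts whose most upstream peak lay before -50 nt and that had none in the window (368 of 651, interval 52.6 to 60.4), 49.5% for those with capped peaks past 15 nt only (108 of 218, interval 42.7 to 56.4), and 52.1% over all transcripts. The near-codon share thus stood below the other shares in Ribo_control, while its interval overlapped that of transcripts with capped peaks past 15 nt only. A leader too short to reach -14 nt leaves no place for a footprint in the segment, and transcripts were not selected on leader length. Among placed genes the annotated leader was 4 nt in DCAF15 and 6 nt in SPC24. Transcripts with a capped peak before -50 nt have a leader that spans the segment. The shares can thus be partly set by the grouping, which was not tested. The 4 libraries were compared side by side without a test.

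In Ribo_starvation_trans1 such transcripts were 21 of 49, 36 of 75, 9 of 37 and 10 of 41 along the same 4 classes, so 42.9% in the most upstream class and 24.3% and 24.4% in the classes from -12 nt on. In Ribo_starvation_trans2 the shares were 61.02%, 50.0%, 26.8% and 37.0%, and in Ribo_starvation 45.9%, 51.2%, 35.0% and 30.4%. Both classes from -12 nt on stood below both classes upstream of it in all 4 libraries, although single intervals overlap. Transcripts with capped peaks past 15 nt only gave 27.5% in Ribo_starvation_trans1, 53.9% in Ribo_starvation_trans2, 34.5% in Ribo_starvation and 49.5% in Ribo_control, so in Ribo_starvation_trans1 and Ribo_starvation they were about as low as the near-codon classes. Over all transcripts the shares were 36.6%, 51.8%, 40.8% and 52.1% in the same order of libraries. The libraries measure the same transcripts of the same line, so they are not independent of each other in this respect.

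**Figure D5:**
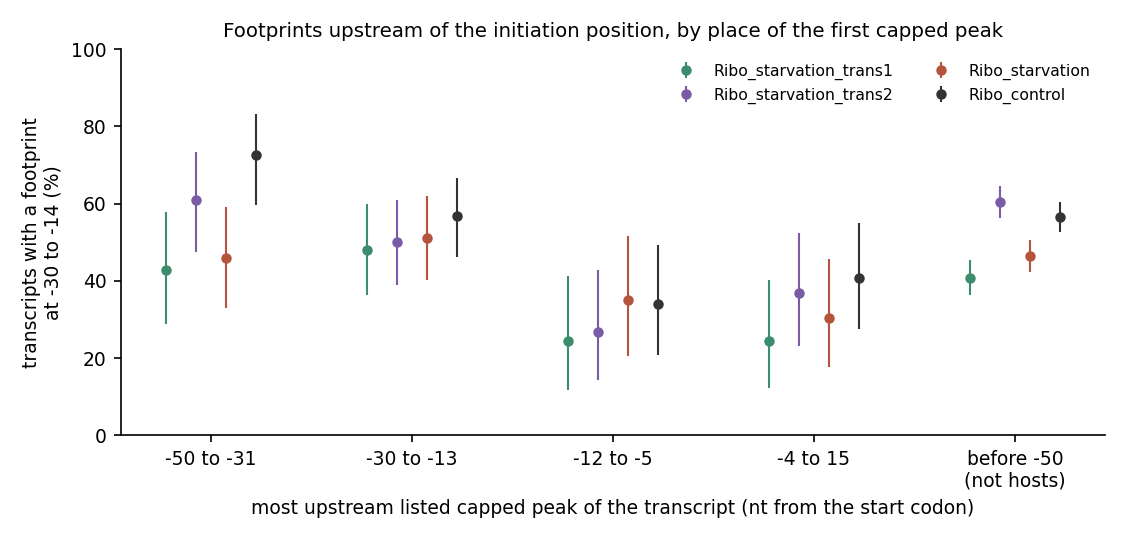
Percent of transcripts with a footprint at -30 to -14 nt (y axis) by the place of their most upstream listed capped peak (x axis, nt from the start codon), in 4 Ribo-seq libraries, with exact binomial 95% intervals. In each library the classes -12 to -5 and -4 to 15 stand lower, at 24.3% to 40.7%, than the classes -50 to -31 and -30 to -13, at 42.9% to 72.6%. Leader length was not matched between classes, and a leader too short to reach -14 nt cannot hold a footprint there.

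Footprints were also counted on each side of the most upstream capped peak for the 165 transcripts that had it at -29 to -1 nt. Between -30 nt and the peak, 43.03% of these transcripts had a footprint in Ribo_control, and between the peak and -1 nt 78.8% had one. Laid over the same positions, transcripts with a capped peak before -50 nt and none in the window gave 55.9% and 75.9%. By that choice the leaders of these others reach past -30 nt. Where a capped peak lies on the transcription start, as 77 of the 262 placed peaks did, no message lies between -30 nt and the peak. The values before the peak can thus be partly set by the grouping, which was not tested. Reads per nt were 1.54 before and 11.9 after the peak in the transcripts with a peak near the codon, and 1.33 and 2.67 in the others. Counted per transcript the gap was smaller: reads per nt were higher after the peak than before it in 68.5% of the transcripts with a peak near the codon and in 62.2% of the others. Pooled reads per nt are weighted towards transcripts with many reads. H3C10, with its capped peak at -23 nt, had 3217 reads at -30 to -14 nt and 2018 at -13 to -11 nt in Ribo_control.

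The authors' deposited tables give a log2 fold change per coding frame for 110 frames on 106 of these transcripts, of 2118 coding frames in all. In the authors' deposited table of Ribo_starvation over Ribo_control, the median was -0.24 for these frames and -0.14 for all. At least 2-fold lower were 5 of the 110, against 1.32% of all frames, and at least 2-fold higher were 0, against 0.236% of all. At a threshold of 1.5-fold, 16 of the 110 were lower, against 9.96% of all, and 0 were higher, against 2.31% of all. In the authors' deposited table the 5 were the mitochondrial chaperonin HSPE1 at -1.34, the ribosomal proteins RPL27A at -1.24, RPL37A at -1.07 and RPS28 at -1.04, and the complex I subunit NDUFC2 at -1.03, named after their values were seen.

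In the authors' deposited table of Ribo_starvation_trans1 over Ribo_starvation, the median was -0.51 for these frames and -0.48 for all. At least 2-fold lower were 3 of the 110, against 1.65% of all frames, and at 1.5-fold 42 were lower, against 33.9% of all. The 3 were the peroxiredoxin PRDX4 at -1.16, H3C2 at -1.15 and DYNLRB1 at -1.03, again named after their values were seen. In the authors' deposited table of Ribo_starvation_trans2 over Ribo_starvation, the median was -0.23 for these frames and -0.25 for all, and 0 of the 110 were at least 2-fold lower, against 0.142% of all. At 1.5-fold 4 were lower, against 8.22% of all. These comparisons share the Ribo_starvation library, and the sources used here do not state how the fold values were scaled. In both, and in Ribo_starvation over Ribo_control, the median over all frames was negative. In each, the first library also had fewer recovered window reads than the library it was set against. Whether the fold values move with library depth was not tested.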

How the data were processed

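The small RNA and Ribo-seq libraries were made from HEK293 cells, 1 library per group, and 9 libraries make up the series. The tools, per the submitters' processing notes and with no role stated, include STAR 2.7.10a, Bowtie 1.2.3, cutadapt 2.8 and bcl2fastq 2.20.0.422. For the small RNA lists the genome build is not given in the sources used, and for Ribo-seq the notes list GRCm39. The authors' peak lists hold counts of reads per position, with a lowest value of 4, and, per the file headers, the other value is a distance from the start codon. The deposited density tables hold a signal relative to the mean of each transcript. The deposited fold tables hold log2 values per reading frame.

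From these, peaks from -50 to 15 nt were taken and matched to total sense peaks on the same transcript within 10 nt. Shares carry exact binomial (Clopper-Pearson) 95% intervals and numbers of peaks exact Poisson intervals. As no molecular identifiers mark the reads, they need not be separate molecules, and intervals cover counting error only. Peaks were placed on RefSeq starts (GRCh38.p14) from 250 bases before and 50 from each start. Window reads were recovered as whole multiples of a transcript's step, within 0.01, with the lowest value divided by whole numbers up to 6 as the step. Placement and recovery were tested on simulated data. The total of a peak list is not a library's depth, and depth is unknown for the small RNA libraries. Python 3.11.15, pandas 2.3.3, numpy 2.4.6, scipy 1.17.1 and matplotlib 3.10.9 were used.

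Named genes were the 20 highest peaks, the 10 highest shared peaks, the 5 highest on the codon, the 5 genes with most peaks (ties among those with 4 went to the highest summed reads), 5 on each side of each window end and up to 4 of each gene list, plus genes whose sequences or footprints are shown. Of the genes that this rule covers, 1 is not reported here. The members and lists were chosen with earlier results of these data known. The placement, the pyrimidine and purine counts and the footprint classes were added after the data were seen. The footprint segment first ended at -13 nt and was shortened to -14 nt after its values were seen, so as not to overlap -13 to -11 nt. Stop codon windows, reading frame lists with mouse identifiers and mouse liver RNA-seq were not used here.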

Additional observations from a re-analysis of the deposited data

How the results depend on the processing

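No paired analysis was possible because each group holds 1 library, and for the same reason no replicate could be left out. Of 27 alternative values, 18 stayed within the counting interval of a share or median, or within 1.5 times a count, and 9 moved. The number of peaks was 703, against 450 for -30 to 0 nt, 986 for -75 to 40 nt, 553 with 1 peak per gene and 154 at a count of at least 10. The share with a total peak was 12.3% at a count of at least 10, and 4.13% to 5.83% at other distances. The median density in Ribo_control was 0.924, its mean 1.11, and the median without each transcript's highest position 0.766. At 1.5-fold, 16, 42 and 4 frames were lower in the authors' deposited tables of Ribo_starvation over Ribo_control, Ribo_starvation_trans1 over Ribo_starvation and Ribo_starvation_trans2 over Ribo_starvation, where 5, 3 and 0 were at 2-fold. These were 14.5%, 38.2% and 3.64% of the 110 frames, against 9.96%, 33.9% and 8.22% of all. The share on the RefSeq start was 43.1% at a count of at least 10, and 26.1% to 32.9% under the other choices, which were made after seeing the data. The share with an upstream footprint for peaks from -12 nt on was 39.7% at 200 reads or more, 41.2% at capped counts of at least 10 and 39.6% with the segment ending at -13 nt, the end used before it was shortened. With that end, peaks from -50 to -13 nt gave 66.04%. The cause of the moves was not tested, apart from those that count fewer peaks or use a lower fold by construction. Unknown small RNA depth limits every ratio of capped to total peaks.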
